A study of Mus musculus with 4 samples.

Results

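The interneuron neuropeptides described here are 10 genes that code for peptide precursors, Sst, Cort, Npy, Crh, Tac1, Tac2, Penk, Pdyn, Pnoc and Cartpt. They were chosen by their symbols, though with earlier results of these data known, and all 10 were found among the 43348 genes of the count matrices. Neuropeptides are made as longer precursors, which enzymes inside dense-core vesicles split into short active peptides. Interneurons release them in addition to the fast transmitter GABA, and the peptides act through G-protein-coupled receptors over longer distances and times than GABA does. Which precursors a cell expresses is among the classic ways to tell interneuron types of the cortex and hippocampus apart, and somatostatin gave a large class of them its name.

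Single-cell RNA sequencing counted these transcripts in cells of frontal cortex and hippocampus from juvenile mice of postnatal day 18 to 20. The cells had been sorted for the red protein TdTomato, which the Ai14 reporter makes wherever Nkx2.1-Cre has been active, that is in cells derived from the medial ganglionic eminence (MGE). Control groups (WT) were Grin1 wt/wt littermates, and null groups were Grin1 fl/fl, in which the same Cre removes Grin1, the subunit that every NMDA receptor needs. Both groups carried the Cre driver and the reporter, both included male and female mice, and all slices and cell suspensions were kept in tetrodotoxin, APV (an NMDA receptor blocker) and actinomycin D. The Cre driver sets 2 limits on the model. Grin1 is lost from before birth onward, and the sort was for descendants of Nkx2.1 cells. It is thus meant to leave out interneurons that come from other birthplaces. Cells of other types were also kept, among them clusters named glutamatergic neuron (591 and 554 cells), microglia (263) and endothelial cell (94). The methods give more animals than replicates, so libraries pool animals, and the labels name no strain.

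There were 3 WT and 2 null libraries from each region, 10 in all, told apart by barcode suffix and matched to replicate numbers through the cell counts that the methods state. Replicate 1 used the older version 2 of the 10x chemistry, and all other libraries used version 3. Total UMI counts (unique molecular identifiers, each standing for a captured transcript) were 9306756, 14212183 and 28057207 in replicates 1, 2 and 3 of WT cortex and 10555408, 8782181 and 20639002 in those of WT hippocampus. Null cortex replicates 1 and 2 had 1488601 and 25688337 UMIs, and null hippocampus had 3856745 and 47338167. The smallest library, null cortex replicate 1, kept 177 cells and the largest, WT hippocampus replicate 2, kept 4599. In all, 26201 of 26987 cells were kept, and 95 barcodes occurred in more than 1 library. The loss was uneven. Replicate 2 of null cortex and of null hippocampus kept 2578 of 2898 and 4055 of 4436 cells. Null replicate 1 kept 177 of 181 and 401 of 404. In WT, for example, replicate 3 kept 3930 of 3960 cells in cortex and 3135 of 3159 in hippocampus. The paper reports cells above its mitochondrial limit in null replicates only. How this loss affects the comparisons of genotypes was not tested. The number of animals and the chemistry of a replicate cannot be told apart from its replicate number.

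WT hippocampus replicate 2 stood apart from the other libraries. Its median was 1479 UMIs per kept cell, against 4411 and 5752 in the other WT hippocampus libraries and 2912.5 to 7098 in WT cortex. Of its 842 SST and TH cells, 646 (76.7%) fell into SST cluster 8, whose cells had a median of 1357.5 UMIs. Of its 515 NGFC cells, 512 fell into NGFC cluster 17, with a median of 1658 UMIs. The results for region in the SST class are therefore also given without this library or without cluster 8. Null medians were 6684 and 8786.5 UMIs in cortex and 8949 and 9763 in hippocampus, so 3 of the 4 null libraries were deeper per cell than every WT library.

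Cells were clustered with the 10 genes left out of the clustering features, and clusters were named from other markers. No level of the 10 genes thus decided the name of the cells it was measured in. Tacr1 and Crhbp, given further on, were among the naming markers. The SST class, cells with markers such as Grin3a and Elfn1, held 5901 cells in clusters 1, 4, 8 and 11 and in cluster 24, which is marked by Chodl and Nos1 and is called the Chodl cluster here. A cluster marked by Th and Nr4a2 (TH cluster) held 725 cells and was tested together with the SST class. It reached 5 of 5 TH markers and also 7 of 7 PVALB markers. Cluster 11 reached 5 of 7 SST markers and also 5 of 5 TH markers, and was named SST because Lypd6, an SST marker, was among its top 10 genes. At a resolution of 0.6 the TH cluster held 1446 cells and had St6galnac5 and Satb1, top genes of cluster 11, among its own, so whether cluster 11 belongs with SST or TH cells is uncertain. The PVALB class held 2265 cells in cluster 2, in the Pthlh cluster with chandelier-cell markers and in cluster 30 (118 cells). Cluster 30 reached 6 of 7 PVALB markers, but its leading genes were Crabp1 and Kit, and Vip was among its top 10. With the peptide genes among the clustering features a cluster of 133 cells led by the same genes was named CGE interneuron (from the caudal ganglionic eminence), so its place in the PVALB class is uncertain. Neurogliaform cells (NGFC class) numbered 2162, in clusters 3 and 17. The sort was for cells of the Nkx2.1 lineage. Besides interneurons, 8714 of the kept cells lay in oligodendrocyte clusters, the largest of which had 7 of 7 oligodendrocyte markers.

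Oligodendrocytes served as the measure of stray RNA, free transcripts that enter a droplet with a cell that does not make them. Levels are given in CPM, the UMIs of a gene after the summed cells of each class or cluster are scaled to the same total. Pooled over all libraries, oligodendrocytes had 46.8 CPM of Sst, 30.6 of Npy and 9.53 of Tac1. The other 7 genes were at 0.0817 to 3.37 CPM in them. As a share of the level over all cells of the same library, the oligodendrocyte level of Sst was 0.241% at the lowest, 0.923% at the median and 1.61% at the highest of the 10 libraries, and that of Npy was 0.388, 1.10 and 1.59%. Tac1 stood higher, at 0.910, 4.02 and 10.4%. It was also uneven among glial clusters, with 24.9 CPM in oligodendrocyte cluster 7 and 51.5 CPM in precursor cluster 10, where Sst was at 45.3 and 126 CPM. Whether these Tac1 counts are stray RNA was not tested.

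**Figure D1:**
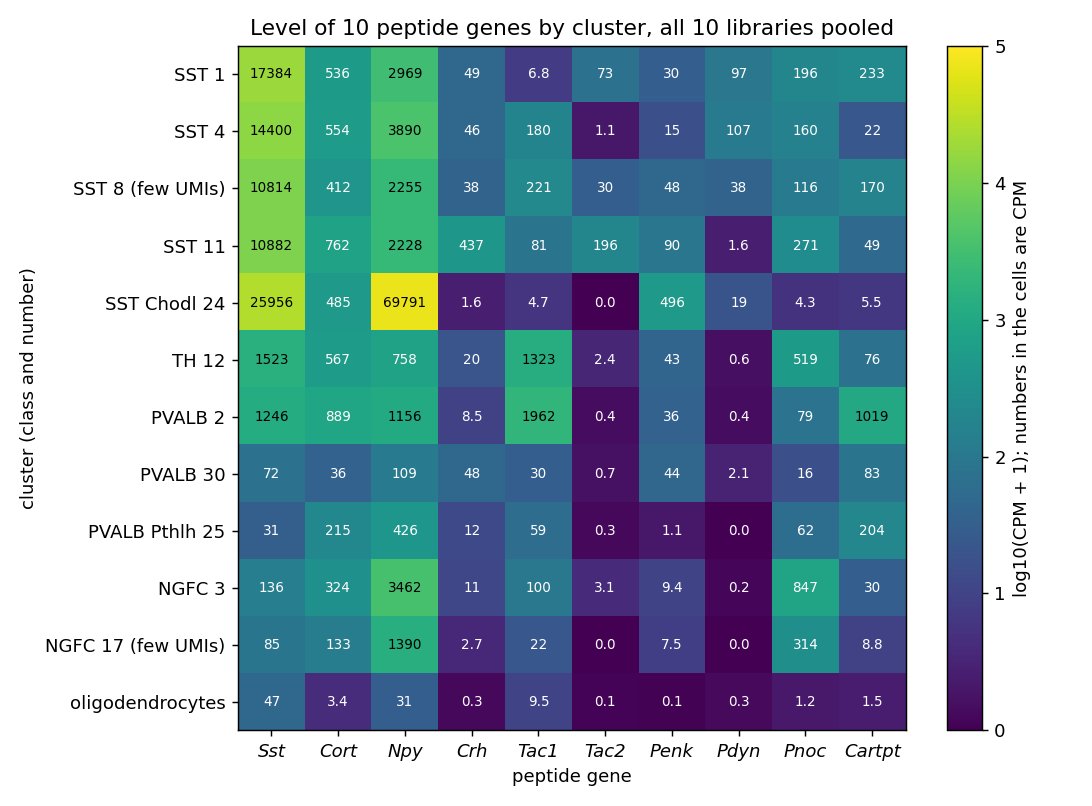
Level of each of the 10 peptide genes (columns) in 11 interneuron clusters and in oligodendrocytes, with all 10 libraries pooled; colour shows log10(CPM + 1) and the printed numbers are CPM. Npy reaches 69791 CPM in the Chodl cluster, while Tac1 and Cartpt are highest in PVALB cluster 2 (1962 and 1019 CPM).

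Sst codes for the precursor of somatostatin, an inhibitory peptide, and lies on chromosome 16 (23889573 to 23890958, minus strand, GRCm38). Its level over libraries was highest in the Chodl cluster, at 26833 ± 6484 CPM (mean ± SD, n = 6 libraries with at least 10 such cells). SST clusters 8, 1 and 4 followed at 17868 ± 11111, 16944 ± 3779 and 14935 ± 4713 CPM (n = 10 each), and cluster 11 was at 10101 ± 2188 CPM (n = 8). Each of these overlapped the next in the order within 1 SD. Below all of them came the TH cluster at 1801 ± 668 CPM (n = 8) and PVALB cluster 2 at 1529 ± 1302 CPM (n = 10), which did not differ beyond their spread. The remaining interneuron clusters had means of 27.7 to 279.7 CPM. Of the 5901 SST cells, 95.7% had an Sst UMI (95% Wilson interval 95.2 to 96.2%, median 7382 UMIs per cell), against 17.7% of 8714 oligodendrocytes (16.9 to 18.5%, median 5396 UMIs). With each cell thinned to 1000 UMIs the shares were 94.9 and 4.24%, with 403 and 717 shallower cells left out. In PVALB cells the thinned share was 17.8% and in NGFC cells 6.45%, the latter little above oligodendrocytes.

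Cort codes for cortistatin, a peptide related to somatostatin that binds the same receptors, and lies on chromosome 4 (149125034 to 149126763, minus strand). In contrast to Sst, it was not low in the PVALB class. PVALB cluster 2 had the highest mean, 874 ± 427 CPM (n = 10), followed by SST cluster 11 at 591 ± 664 (n = 8), SST cluster 8 at 586 ± 318 (n = 10), the TH cluster at 576 ± 277 (n = 8) and SST cluster 1 at 555 ± 273 CPM (n = 10). SST cluster 4, the Chodl cluster and NGFC cluster 3 had means of 372 to 488 CPM. None of these neighbours differed beyond their spread. Lower means were found in the Pthlh cluster (191 ± 186 CPM, n = 8), NGFC cluster 17 (146 ± 23.9 CPM, n = 3) and PVALB cluster 30 (43.5 ± 70.3 CPM, n = 4). Thinned to 1000 UMIs, 26.3% of PVALB cells, 19.2% of SST cells and 17.7% of NGFC cells had a Cort UMI, against 0.313% of oligodendrocytes. Without thinning the shares were 55.6, 41.04, 53.1 and 1.72%.

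The kinship of this pair can be read in the transcripts themselves. Among the 45 pairs of the 10 genes, the longest run of identical bases shared by the transcripts was 21 bases, between Sst and Cort, and the next was 15 bases, between Penk and Pdyn. The run lies where the coding sequences end, in the stretch that codes for the active peptides. Of 45 aligned bases, which end with the last coding base of Sst and 3 bases before that of Cort, 33 (73.3%) are identical. These stretches are shown because they carry the only long stretch of sequence that members of the group have in common. They were read from GENCODE transcripts on GRCm38, chr16:23889729-23889773 for Sst and chr4:149125267-149125311 for Cort, both on the minus strand and written 5′ to 3′, with identical bases in capitals.
Sst: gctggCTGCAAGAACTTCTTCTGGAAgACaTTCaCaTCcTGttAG
Cort: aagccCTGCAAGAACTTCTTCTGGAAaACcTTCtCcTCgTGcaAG

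Npy codes for neuropeptide Y, which dampens transmitter release and lies on chromosome 6 (49822710 to 49829507, plus strand). It was most abundant in the Chodl cluster, at 66036 ± 7751 CPM (n = 6), where the libraries ran from 55112 to 74709.8 CPM. All 405 Chodl cells deep enough for thinning had both an Npy and an Sst UMI among 1000. Although the Chodl cluster made up 6.14% of SST and TH cells, it held 433680 of their 577177 Npy UMIs (75.1%). Far below and overlapping within their spread came SST cluster 8 (5126 ± 7446 CPM, n = 10, with a median of 2193 and 25304 CPM in the 24 cells of null cortex replicate 1), SST cluster 4 (4017 ± 1639.5, n = 10), NGFC cluster 3 (3609.6 ± 1317, n = 8), SST cluster 1 (2742 ± 1504, n = 10), NGFC cluster 17 (1754 ± 785, n = 3), SST cluster 11 (1674 ± 1417, n = 8) and PVALB cluster 2 (1069 ± 1073, n = 10). The TH and Pthlh means were 706 and 427 CPM. Cluster 30 was at 507 ± 926 CPM (n = 4), with a median of 57.5 CPM and 1896 CPM in the 11 cells of WT cortex replicate 2. Thinned to 1000 UMIs, Npy was found in 64.8% of NGFC cells (95% Wilson interval 62.7 to 66.8%), 49.02% of SST cells, 22.4% of PVALB cells and 2.63% of oligodendrocytes. Unthinned the shares were 77.9, 67.8, 49.8 and 13.0%. NGFC cells had a median of 6895.5 UMIs, with 163 of 2162 left out by thinning, and PVALB cells a median of 8535, with 33 of 2265 left out.

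Crh codes for corticotropin-releasing hormone, the peptide that starts the hormonal stress response and that some cortical interneurons also make. It lies on chromosome 3 (19693401 to 19695396, minus strand), within 4 kb of the end of Trim55 on the other strand. Counts near its extended end could be affected, which was not tested. Cluster 11, whose place between SST and TH cells is uncertain, led at 348 ± 198 CPM (n = 8), from 90.4 CPM in the lowest library through a median of 365 to 683 CPM in the highest. Every other cluster had a mean of 60.01 CPM or less, and the median oligodendrocyte level over libraries was 0.285 CPM. Cluster 11 held 10.99% of SST and TH cells and 64.2% of their Crh UMIs. Within it 56.9% of cells had a Crh UMI, or 27.3% after thinning, against 0.161 and 0.02501% of oligodendrocytes. In the Chodl cluster Crh was at 1.39 ± 1.504 CPM (n = 6).

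Tac1 codes for the precursor of substance P and neurokinin A, and Tac2 for that of neurokinin B, the other mouse tachykinin described here. Tac1 lies on chromosome 6 (7554879 to 7565834, plus strand) and Tac2 on chromosome 10 (127724478 to 127731768, plus strand). Tac1 was highest in PVALB cluster 2 (1867 ± 405 CPM, n = 10) and in the TH cluster (1397 ± 540.2 CPM, n = 8), which overlapped within their spread. SST clusters 8 and 4 followed at 275 ± 163 and 172 ± 152 CPM (n = 10 each), and the other interneuron clusters had means of 3.91 to 118 CPM. Cluster 2 held 99.2% of the Tac1 UMIs of the PVALB class. After thinning 46.6% of PVALB cells and 45.9% of TH cells had a Tac1 UMI, against 0.663% of oligodendrocytes, and before thinning the shares were 63.3, 69.2 and 2.91%.

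Tac2 was highest in 3 clusters named SST, at 117 ± 142 CPM in cluster 11 (n = 8), which also had all TH markers, 53.1 ± 62.9 CPM in cluster 1 and 25.3 ± 41.7 CPM in cluster 8 (n = 10 each), means that overlapped widely. All other interneuron clusters had means of at most 4.18 CPM, and in the Chodl cluster no library had a Tac2 UMI. Cluster 11 held 50.98% and cluster 1 held 45.8% of the Tac2 UMIs of SST and TH cells. Crh and Tac2 both peaked in cluster 11. Of 726 thinned cells of that cluster, 198 had Crh, 40 had Tac2 and 5 had both, so Tac2 was detected in 2.53% of the cells with Crh and in 6.63% of the rest. In cluster 1 the order was the reverse, with Tac2 in 8.89% of 45 cells with Crh (4 cells) and in 3.64% of the rest. At 1000 UMIs per cell most transcripts are missed, and these shares describe detection only.

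Penk, Pdyn and Pnoc belong to the opioid family and code for the precursors of the enkephalins, the dynorphins and nociceptin. Penk lies on chromosome 4 (4133531 to 4138819, minus strand) and is overlapped on the other strand by A830012C17Rik, so a part of its counts could be affected, which was not tested. It was highest in the Chodl cluster at 507 ± 118 CPM (n = 6), clear of SST cluster 11 at 78.7 ± 33.2 (n = 8), while all remaining means lay at 72.4 CPM or below. The Chodl cluster held 62.3% of the Penk UMIs of SST and TH cells, and 86.98% of its 407 cells had a Penk UMI, or 35.8% of 405 after thinning. In oligodendrocytes Penk was found in 0.0459% of cells, and in 0 of 7997 after thinning, where the Wilson interval reaches 0.04801%.

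Pdyn lies on chromosome 2 (129686565 to 129699844, minus strand). It was highest in clusters of the SST class and shared cluster 1 with Tac2, but it was also high in cluster 4 and low in cluster 11. SST clusters 4, 1 and 8 had 143 ± 152, 81.4 ± 94.1 and 40.9 ± 54.97 CPM (n = 10 each), which overlapped within their spread, and the Chodl cluster had 14.3 ± 6.01 CPM (n = 6). SST cluster 11, the TH cluster and all PVALB and NGFC clusters had means of at most 1.1996 CPM. The wide spread in clusters 4 and 1 followed the region, as given further on. Pdyn was found in 13.4% of SST cells, 0.552% of TH cells and 0.161% of oligodendrocytes, or in 4.55, 0 and 0.0375% after thinning.

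Pnoc lies on chromosome 14 (65400673 to 65425472, minus strand), with Zfp395 on the other strand within 4 kb of its end. Its order was another again. NGFC cluster 3 led with 721 ± 268 CPM (n = 8), ahead of NGFC cluster 17 with 535 ± 312 (n = 3), the TH cluster with 424 ± 169 (n = 8) and SST cluster 11 with 268 ± 219 CPM (n = 8), and each overlapped its neighbour within the spread. SST clusters 8, 1 and 4 had means of 229, 209.6 and 117 CPM. The Chodl cluster was lowest at 9.86 ± 21.9 CPM (n = 6), with a median over libraries of 0.852 CPM. Pnoc was found in 75.3% of NGFC cells and 84.7% of TH cells, against 0.654% of oligodendrocytes, and after thinning in 45.02, 35.9 and 0.138%.

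Cartpt codes for the precursor of the CART peptides, which are known above all for their part in feeding and reward. It lies on chromosome 13 (99898489 to 99901091, minus strand). Its level was highest in PVALB cluster 2 at 916 ± 336 CPM (n = 10), above the Pthlh cluster at 257 ± 241 (n = 8), SST cluster 1 at 215 ± 122 (n = 10), SST cluster 8 at 209.7 ± 84.5 (n = 10) and the TH cluster at 144 ± 197 CPM (n = 8), which overlapped one another. SST cluster 4 had 24.4 ± 29.9 CPM (n = 10), and the Chodl cluster had 4.95 ± 8.80 CPM (n = 6). Within PVALB cluster 2, Cartpt was detected in 51.4% of the thinned cells with Tac1 and in 34.9% of those without. Of all PVALB cells 62.9% had a Cartpt UMI, or 36.7% after thinning, against 0.425 and 0.0875% of oligodendrocytes.

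Some of the genes went together within a cluster and others apart. In PVALB cluster 2, thinned cells with Sst had Npy more often than cells without it (48.96 against 16.8%), and Cort as well (49.7 against 25.6%). In SST cluster 4, Tac1 was found in 4.43% of the cells with Sst and in 33.3% of the cells without. SST cluster 11 showed Penk in 18.9% of its cells with Npy and in 2.096% of the others, while in SST cluster 1 the shares were 0.940 and 3.35%. These shares describe pooled cells of libraries that differ in depth, and no test was made. Across the 11 interneuron clusters, pooled over libraries, Pearson's r of log2(CPM + 1) was highest for Crh with Tac2 (0.79) and Sst with Pdyn (0.77). It was 0.70 for Cort with Sst and for Penk with Sst, and 0.67 for Npy with Sst. Among other pairs it was 0.57 for Cort with Npy and 0.51 for Cartpt with Tac1, and it was lowest for Cartpt with Npy at -0.51.

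Among 8548 genes with at least 20 CPM in 1 or more of these 11 clusters, the closest in pattern to each member were sought by the same r. For Sst they were Ildr2 (0.97), Fibcd1 (0.95) and Triqk (0.95), and for Npy they were Scn9a (0.97), Rps20 (0.94) and Myl6 (0.94). Tac2 was closest to A330017A19Rik (0.92) and Pdyn to Pitpnc1 (0.93), with Oprk1 (0.92), the gene of the receptor that dynorphins bind, next. Cort was nearest to Timm10b (0.93), Crh to Ppp3r1 (0.91), Tac1 to Mrpl48 (0.88), Penk to Adamts3 (0.88), Pnoc to Thap3 (0.94) and Cartpt to Ppp2r5e (0.898). The clusters share libraries and differ in depth, and with 11 points many genes reach a high r.

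The next question was whether the cortex and hippocampus differ in peptide expression within a class, asked in WT libraries alone so that genotype does not enter. In the SST class with TH cells, Pdyn was at 111, 109 and 103 CPM in replicates 1, 2 and 3 of WT cortex, an order kept for all values of libraries here. In WT hippocampus it was at 0.527 CPM (1 UMI, 95% Poisson interval 0.0133 to 2.94 CPM), 14.6 CPM and 2.01 CPM. Every hippocampal library thus lay under every cortical library, with replicate 2 the highest of the hippocampal ones. Hippocampus minus cortex was -4.33 on the log2 scale in edgeR, with an adjusted p of 0.0716 over 11955 genes. With the replicate number as a block, which compares libraries of the same replicate and chemistry, it was -4.52 with an adjusted p of 1.91e-06. The labels do not say whether libraries of the same replicate number shared a preparation. Over 26 settings the change ran from -6.28 to -3.85 and the adjusted p from 7.855e-78 to 0.229, the lowest value coming from a fit with a single residual degree of freedom. Leaving out WT hippocampus replicate 2 alone, without a block, also brought Pdyn past the threshold, at -6.28, as did leaving out the low-UMI cluster (-5.64). A resolution of 0.6 did so too (-5.47), but there a low-UMI cluster of 1637 cells with SST markers was left unnamed, so that setting also took low-UMI cells out of the class.

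**Figure D2:**
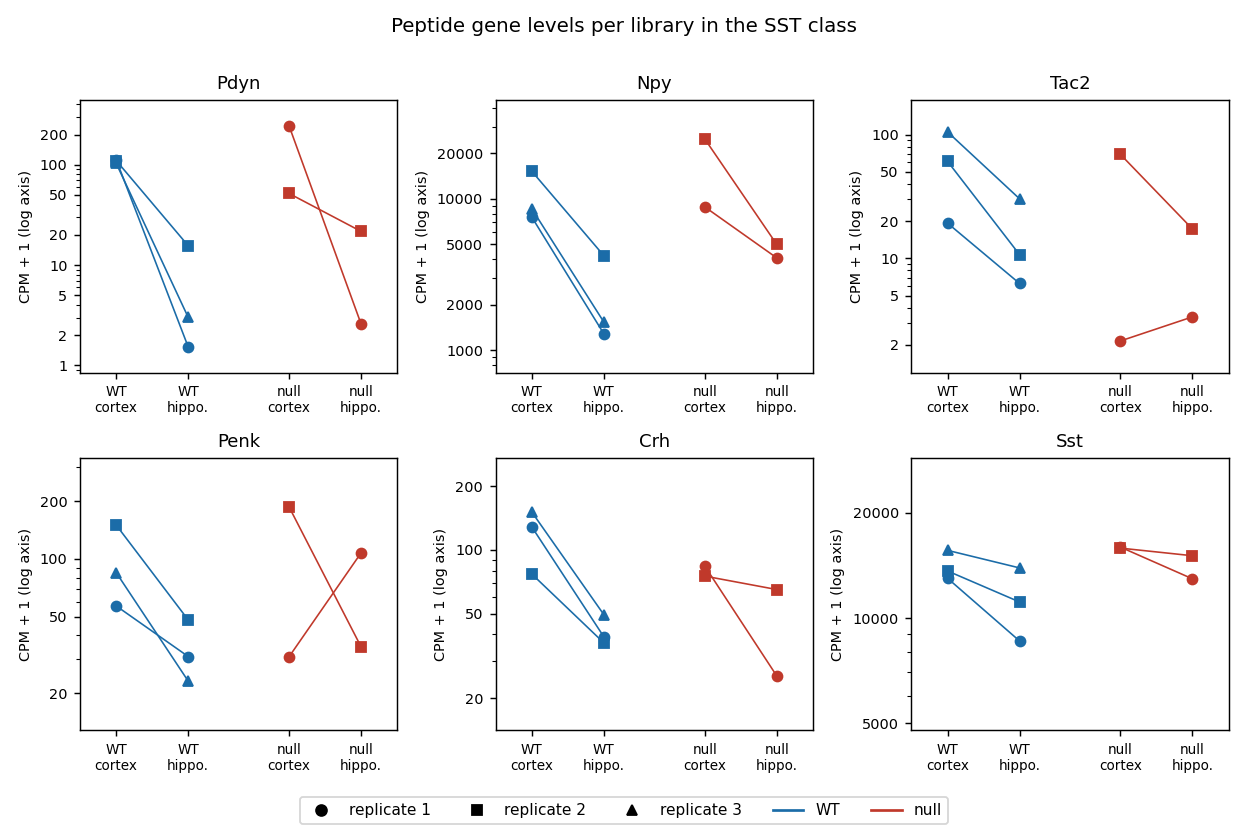
Level per library of 6 peptide genes in the SST class with TH cells, as CPM + 1 on a log axis; each point is a library, its shape the replicate, and lines join libraries of the same replicate number in cortex and hippocampus (blue WT, red null). In WT, Pdyn, Npy, Tac2, Penk, Crh and Sst are lower in hippocampus in all 3 pairs, from 15201 to 4210.4 CPM for Npy in replicate 2, for example.

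The thresholds used throughout were an adjusted p below 0.01 together with a change of 0.1 or more on the natural-log scale (0.144 in log2). By these, 0 of the 10 genes passed edgeR's test for region in the SST class, against 4 of 11955 genes (0.0335%). Without adjustment, 5 of the 10 and 909 of all genes had a p under 0.05, and DESeq2 called Crh and Npy among 137 genes. With the replicate block 5 of the 10 passed, all lower in hippocampus, namely Pdyn, Npy, Crh, Tac2 and Penk. The background with the block was 379 of 11955 genes (3.17%), 208 higher and 171 lower, and the median log2 change was -1.11 over the 10 genes and 0.01 over all genes tested. Without WT hippocampus replicate 2 and with the block, a fit that leaves a single residual degree of freedom, 7 of the 10 and 796 of 12514 genes passed, with Tac1 and Pnoc, both higher, as the additional genes of the 10.

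Npy was at 7569, 15201 and 8591 CPM in WT cortex and at 1283, 4210.4 and 1534 CPM in WT hippocampus. Replicate 2 was the highest in both regions, and the regions did not overlap. The log2 change was -2.18 (adjusted p 0.142), and -2.36 with the block (adjusted p 2.34e-07), with a range of 1.79e-51 to 0.628 over the 26 settings. The Chodl cluster, which carries most Npy, moved with it, at 5.27, 11.03 and 3.61% of SST and TH cells in WT cortex and 0.344, 2.14 and 0.293% in WT hippocampus. Without the Chodl cluster and with the block the change in Npy was -1.34 (adjusted p 0.000123), still past the threshold. Inside clusters 1, 4, 11 and TH the regions also stood apart. SST cluster 1 had 3063, 2969.8 and 3021 CPM in cortex and 641, 1223 and 939 CPM in hippocampus. SST cluster 4 had 4931, 4776 and 5189 CPM in cortex and 1550.1, 2719 and 2495.5 CPM in hippocampus. Cluster 11 had 3086, 3607 and 3236 CPM in cortex and 119 and 499 CPM in hippocampal replicates 1 and 3, and the TH cluster had 1538, 1623 and 933 CPM against 223 and 287 CPM in the same replicates. In SST cluster 8 the regions overlapped, at 9022, 1318 and 1874 CPM in cortex and 1828, 1489 and 2513 CPM in hippocampus, with the hippocampus higher in replicates 2 and 3. In the Chodl cluster the WT cortex libraries had 62459.7, 60787 and 73003 CPM, and the only WT hippocampus library with enough such cells, replicate 2, had 55112 CPM.

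Crh was at 127, 75.98 and 149.8 CPM in WT cortex and at 37.95, 35.5 and 48.5 CPM in WT hippocampus. The regions did not overlap, and the gap was narrowest in replicate 2. Its log2 change was -1.60 (adjusted p 0.0931), and -1.56 with the block (adjusted p 8.10e-05, range over settings 4.59e-18 to 0.365). In SST cluster 11 alone, Crh was at 521, 394 and 683 CPM in cortex and at 90.4 and 122.9 CPM in hippocampal replicates 1 and 3, where replicate 2 had no cells of this cluster. The regions overlapped in the other clusters of the class with Crh in both. Cluster 4, for example, had 26.3, 42.7 and 86.5 CPM in cortex and 36.4, 44.6 and 52.1 CPM in hippocampus, and the TH cluster had 15.7, 45.2 and 9.498 CPM in cortex and 63.3 and 35.2 CPM in hippocampal replicates 1 and 3. In cluster 4 the hippocampus was the higher in replicates 1 and 2, and in the TH cluster in replicates 1 and 3. The share of cluster 11 among SST and TH cells was 17.4, 11.2 and 13.4% in cortex and 11.7, 0 and 13.5% in hippocampus.

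Tac2 was at 18.3, 59.8 and 104 CPM in WT cortex and at 5.27, 9.72 and 29.3 CPM in WT hippocampus. The groups overlapped, as hippocampal replicate 3 lay above cortical replicate 1, yet within each replicate the hippocampus was lower, by -1.62, -2.50 and -1.80 in log2(CPM + 1). The fitted change was -2.05 (adjusted p 0.397), and -2.13 with the block (adjusted p 1.08e-05, range 1.96e-13 to 0.9999). Penk was at 55.95, 149 and 83.9 CPM in cortex and at 30.04, 47.1 and 22.1 CPM in hippocampus, again without overlap. Its change was -1.59 (adjusted p 0.225), and -1.57 with the block (adjusted p 0.000124, range 6.59e-12 to 0.532). Penk was the gene whose call depended on the Chodl cluster, for without that cluster the blocked change was -0.68 with an adjusted p of 0.0873. In SST cluster 1 Tac2 overlapped, at 24.6, 77.3 and 87.9 CPM in cortex and 17.2, 8.32 and 62.6 CPM in hippocampus. In cluster 11 it overlapped too, at 35.4 to 399 against 0 to 37.7 CPM. Penk stood apart in cluster 1 (23.9 to 34.2 against 0 to 20.97 CPM). It overlapped in the other clusters, with 350 to 681 against 577 CPM in the Chodl cluster.

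The directions in the class as a whole held in every setting. Pdyn, Npy, Crh, Tac2, Penk, Sst and Cartpt were lower in hippocampus in all 26, while Tac1 and Pnoc were higher in all 26. Without the low-UMI SST cluster 8 and with the block the 5 genes called with the block passed again (173 of 11858 genes in all), and without the Chodl cluster and with the block 4 of them did (364 of 11864). Inside clusters 4 and 1 Pdyn also stood apart, with 291, 249.7 and 204 CPM in WT cortex and 0, 7.44 and 0.789 CPM in WT hippocampus in SST cluster 4. In SST cluster 1 it was at 151, 123.4 and 125 CPM in cortex and at 1.91, 0 and 4.17 CPM in hippocampus. The regions overlapped in SST cluster 8, with 0, 119 and 60.4 CPM in cortex and 0, 20.8 and 15.6 CPM in hippocampus, and in the Chodl cluster, with 10.2, 14.4 and 18.9 CPM in cortex and 11.1 CPM in hippocampal replicate 2.

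The other 5 genes did not pass with or without the block while all 6 libraries were used. Sst was at 13000.2, 13641 and 15624 CPM in WT cortex and at 8598, 11119 and 13916 CPM in WT hippocampus, where replicate 3 overlapped the cortical values. The change in Sst was -0.39 (adjusted p 0.908), and it was lower in hippocampus within each of the 3 replicates. Cort (487, 668 and 631 against 601, 383 and 629 CPM) and Cartpt (189, 168 and 122 against 129, 68.5 and 121 CPM) overlapped between the regions, with changes of -0.21 and -0.66. Inside clusters Cort went both ways. Cluster 11 had 858, 1795 and 1311 CPM in cortex and 292 and 321 CPM in hippocampal replicates 1 and 3. SST cluster 4 had 288, 365 and 367 CPM in cortex and 1016, 393 and 760 CPM in hippocampus. In clusters 1 and 8 and in the TH and Chodl clusters the regions overlapped for Cort. Tac1 and Pnoc were higher in hippocampus within each of the 3 replicates. Tac1 was at 148, 106 and 156 CPM in cortex and 227, 130.3 and 327 CPM in hippocampus (0.67, adjusted p 0.779), and Pnoc at 137, 49.3 and 102 against 170.3, 52.5 and 396 CPM (1.02, adjusted p 0.908), so both overlapped. With the block the changes were 0.61 (adjusted p 0.0717, range over settings 0.000414 to 0.99995) and 0.76 (adjusted p 0.129, range 1.49e-07 to 0.9999). In SST cluster 1 the Pnoc values did not overlap, at 68.3, 29.7 and 45.98 CPM in cortex and 189, 91.5 and 424 CPM in hippocampus, and clusters 4 and 11 were likewise higher in hippocampus. Cluster 8 overlapped, at 0, 19.9 and 108.8 CPM against 241, 53.7 and 406 CPM. The TH cluster went the other way within replicates, at 502, 323 and 472 CPM in cortex and 246 and 456 CPM in hippocampal replicates 1 and 3.

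In the PVALB class 7 of the 10 genes had enough counts to be tested for region, and 0 passed in edgeR, against 3 of 8972 genes (0.0334%). Without adjustment 2 of the 7 and 353 of all genes had a p under 0.05, and DESeq2 called 0 of them and 23 genes. Leaving out any single WT library left 0 or 1 gene past the threshold. Npy was at 601, 884 and 904 CPM in WT cortex and at 174, 261 and 535 CPM in WT hippocampus, all lower than in cortex. Its log2 change was -1.29 (adjusted p 0.564), and with the block -1.40 (adjusted p 0.000406, the lowest of 19 settings, which reach 0.99995). The block thus called 1 of the 7 genes, against 82 of 8972 (0.914%). Tac1 (1399, 1177 and 2028 against 1245, 677 and 2062 CPM) and Cartpt (979, 770.1 and 1255 against 657, 309 and 1168 CPM) overlapped between regions. So did Sst (192 to 801 against 281 to 3690 CPM) and Pnoc (20.5 to 49.3 against 14.7 to 212 CPM). The fitted changes of Sst and Pnoc were positive, higher in hippocampus, in all 19 settings. Without the filter on low counts both passed in edgeR, at 1.52 (adjusted p 0.000277) and 1.53 (adjusted p 0.000888), as did Npy.

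In the NGFC class 7 of the 10 genes were tested for region and 0 passed in edgeR, as did 0 of 7879 genes (0%). Without adjustment 2 of the 7 and 213 of all genes had a p under 0.05, and DESeq2 called Crh among 8 genes. With the block 1 of the 7, Crh, and 11 of 7879 genes (0.14%) passed. Crh was at 78.4, 35.9 and 19.4 CPM in WT cortex, from 24, 15 and 13 UMIs. In WT hippocampus it was at 0 CPM in replicate 1, where 3 UMIs would be 3.85 CPM, and at 2.85 (3 UMIs) and 2.58 CPM (8 UMIs) in replicates 2 and 3. All cortical libraries thus lay above all hippocampal ones, on few counts. The change was -4.23 with an adjusted p of 0.171 in edgeR and -3.86 with an adjusted p of 0.00524 with the block, over a range of 1.73e-08 to 0.719 in 19 settings. Without WT hippocampus replicate 2 and without the block it was -4.38 (adjusted p 0.164). With the peptide genes among the clustering features, the mean of Crh over the WT cortex libraries was 10.1 CPM in place of 44.6 CPM, so its level depended on that choice. Npy in NGFC cells was at 4402, 4081 and 4877 CPM in cortex and 956, 1325 and 4063 CPM in hippocampus, where replicate 3 lay just under the lowest cortical library (log2 change -1.06, adjusted p 0.9996, and -0.84 without WT hippocampus replicate 2).

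**Figure D3:**
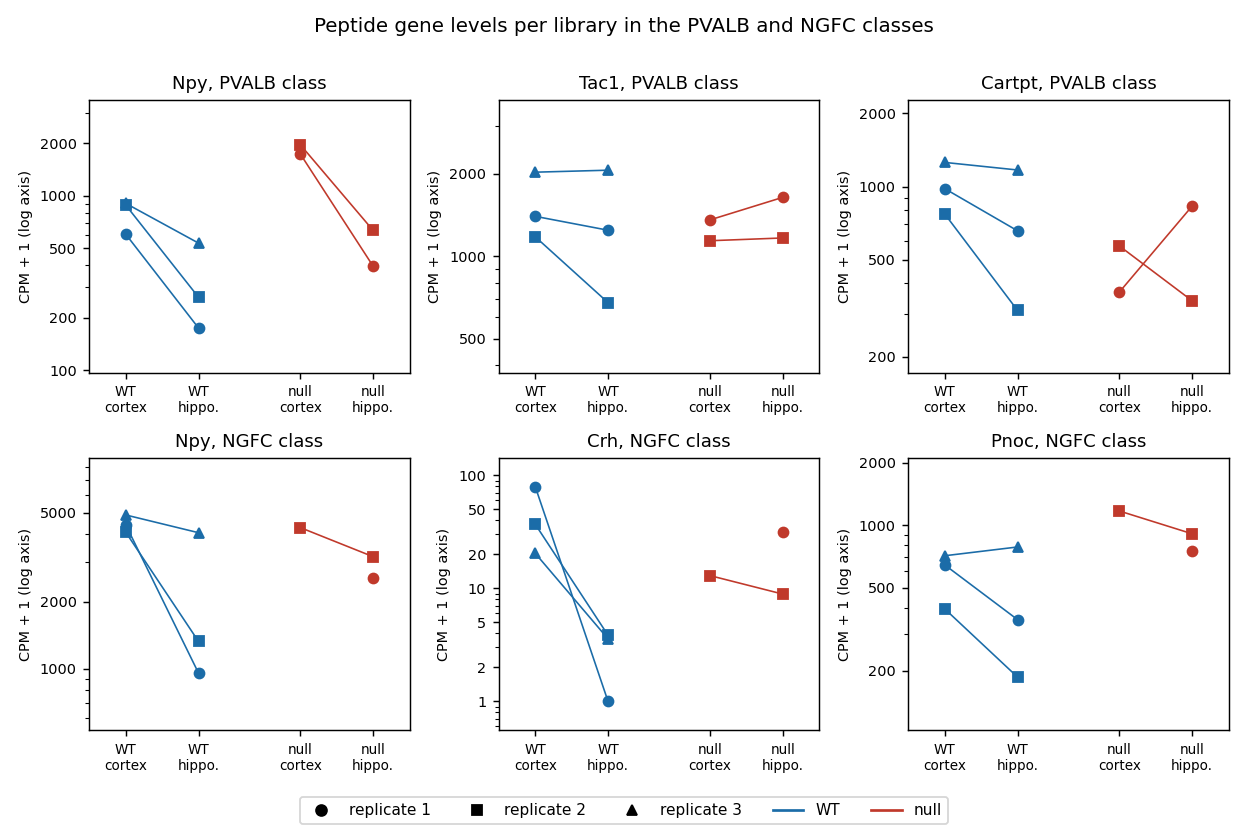
Level per library of Npy, Tac1 and Cartpt in the PVALB class and of Npy, Crh and Pnoc in the NGFC class, as CPM + 1 on a log axis, with each point a library, shapes for replicates and lines between regions of the same replicate number (blue WT, red null). Npy in PVALB cells is at 1734 and 1961 CPM in null cortex, above the highest WT cortex library at 904 CPM, and null cortex replicate 1 has no NGFC point because it held too few such cells.

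The study's central question is what the loss of NMDA receptors does to these interneurons, and Grin1 itself was therefore read first. In the SST class with TH cells Grin1 was at 152, 254 and 233 CPM in WT cortex and at 38.03 and 28.3 CPM in null cortex replicates 1 and 2. In hippocampus it was at 120.2, 174 and 161 CPM in WT and at 22.9 and 21.8 CPM in null. Every null library lay under every WT library, and the same held in the PVALB and NGFC classes. Null minus WT was -2.70 in cortical SST cells (adjusted p 0.0363), -2.76 in hippocampal SST cells (0.0306), -2.58 in cortical PVALB cells (0.0224) and -2.85 in hippocampal PVALB cells (0.0611). In hippocampal NGFC cells it was -2.48 (0.579), and in cortical NGFC cells, with a single null library and no test, -2.26. Even the deleted gene thus missed the adjusted p of 0.01 in these main edgeR fits. That bounds what counts of 0 from the same fits can say in the comparisons that follow. Whether Grin1 passed in other settings or in DESeq2 is not given here.

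With the filter on low counts in place, none of the 10 peptide genes passed edgeR's test in any comparison of genotypes. Of all other genes tested, 1 did, in cortical PVALB cells, and elsewhere the share past the threshold was 0%. In cortical SST cells 0 of 10 passed beside 0 of 12935 genes, of which 291 had an unadjusted p under 0.05, among them 1 of the 10, and DESeq2 called 3 genes. In hippocampal SST cells it was 0 of 10, with 487 genes and 0 of the 10 under 0.05, and 2 genes by DESeq2. Cortical PVALB cells had 0 of 8 genes past the threshold beside 1 of 9864 (0.0101%), 348 genes and 4 of the 8 under 0.05, and 14 genes by DESeq2. For hippocampal PVALB cells the numbers were 0 of 8, 273 and 0, and 1 gene by DESeq2, and for hippocampal NGFC cells 0 of 8, 308 of 9713 and 3, and 1 gene by DESeq2. DESeq2 called 0 of the peptide genes in all of them. The replicate block called 0 of 8 in cortical PVALB cells, against 2 of 9864 genes (0.0203%).

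Whether the genotype difference itself depended on the region was tested as an interaction. For the SST class 0 of 10 and 0 of 12935 genes passed in edgeR, with 79 genes and 0 of the 10 under an unadjusted 0.05, and for the PVALB class 0 of 8 and 0 of 9864, with 111 genes and 1 of the 8. DESeq2 called 0 genes in both. Npy had an interaction of 0.24 on the log2 scale in SST cells.

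Npy in PVALB cells leaned the same way in both regions. In null cortex it was at 1734 and 1961 CPM, against 601, 884 and 904 CPM in WT cortex. In null hippocampus it was at 394 and 633 CPM, against 174, 261 and 535 CPM in WT. Both null cortex libraries lay above all WT cortex libraries, while in hippocampus null replicate 1 lay below WT replicate 3, so the groups overlapped. Within replicates 1 and 2, the ones present in both genotypes, null was the higher in each region. The log2 change was 1.23 in cortex (adjusted p 0.641, range 0.0361 to 1 over 23 settings, all of them positive) and 0.65 in hippocampus (adjusted p 0.9999, lowest 0.470 of 23 settings, also positive throughout), and it failed the threshold in every setting. The mean of the null cortex libraries moved with the clustering, from 1847 CPM to 2216 CPM with the peptide genes among the clustering features. The clusters of the class were also differently filled, as cluster 2 held 21 of 30 and 129 of 262 PVALB cells in null cortex and 114 of 139, 434 of 512 and 632 of 682 in WT cortex. Inside cluster 2, a description chosen after the values were seen, Npy was at 2291 and 3619 CPM in null cortex against 651, 957 and 963 CPM in WT cortex, and at 513 and 745 CPM in null hippocampus against 169, 269 and 509 CPM in WT hippocampus. Every null library lay above every WT library of its region there, though null hippocampus replicate 1 and WT replicate 3 nearly met. In the other clusters of the class the genotypes overlapped. The Pthlh cluster was at 468 CPM in null cortex replicate 2 against 510.4, 363 and 375 CPM in WT cortex, and at 469 CPM in null hippocampus replicate 2 against 182, 253 and 796 CPM in WT hippocampus. Cluster 30 was at 45.5 CPM in null cortex replicate 2 against 15.7, 1896 and 69.5 CPM in WT cortex.

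In SST cells Npy overlapped between genotypes in cortex, where the null libraries had 8847 and 24849 CPM and the WT libraries 7569 to 15201 CPM. Null cortex replicate 2 was the highest of all libraries, and it also had the highest share of Chodl cells, 20.2% against 2.75% in null replicate 1. In hippocampus the null libraries had 4073 and 4997 CPM and the WT libraries 1283, 4210.4 and 1534 CPM, which overlapped through WT replicate 2. Within replicates 1 and 2 null was the higher in both regions. Within SST cluster 1 Npy was at 5665 and 3924 CPM in null cortex and 2969.8 to 3063 CPM in WT cortex, and at 2773 and 3201 CPM in null hippocampus and 641 to 1223 CPM in WT hippocampus. Null libraries lay above WT libraries in both regions there, a description chosen after the values were seen. In SST cluster 4 the cortical null values of 7174 and 4668 CPM fell on both sides of WT at 4776 to 5189 CPM, while the hippocampal ones of 3298 and 3373 CPM lay above WT at 1550.1 to 2719 CPM. In cluster 11 null was lower than WT in cortex, at 606 and 1535 CPM against 3086 to 3607 CPM, and higher in hippocampus, at 705 CPM in the single null library against 119 and 499 CPM. The clusters of the class thus went different ways in cortex, and in hippocampus clusters 1, 4 and 11 went the same way. The genotypes overlapped in cluster 8 in both regions. In the TH cluster the single null cortex library, at 706 CPM, lay below WT cortex at 933 to 1623 CPM, and in hippocampus the genotypes overlapped, at 72.8 and 264 CPM in null and 223 and 287 CPM in WT. In the Chodl cluster the single null library lay above WT in each region, at 74709.8 CPM in cortex and 70147 CPM in hippocampus.

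Cort in cluster 11, also singled out after its values were seen, was at 19.5 and 93.1 CPM in null cortex, from 10 and 98 cells, and at 858, 1795 and 1311 CPM in WT cortex. In hippocampus cluster 11 had 38.5 CPM of Cort in the single null library and 292 and 321 CPM in WT. SST cluster 4 was also lower in null cortex, at 222 and 151 CPM against 288 to 367 CPM in WT. The TH cluster had 446 CPM in the single null cortex library and 556 to 974 CPM in WT. In SST cluster 1 the null cortex values of 278 and 983 CPM fell on both sides of WT at 355 to 531 CPM. In cluster 8 the genotypes overlapped, and in the Chodl cluster the null cortex value of 506 CPM lay among WT at 357 to 548 CPM. In the class as a whole Cort was at 385 and 482 CPM in null cortex and 487 to 668 CPM in WT, which did not overlap but nearly met. Sst was at 15962 and 15856 CPM in null cortex, just above WT at 13000.2 to 15624 CPM, and at 12949.8 and 15079 CPM in null hippocampus, which overlapped WT at 8598 to 13916 CPM. Cartpt in cortical SST cells was at 71.4 and 48.3 CPM in null and 122 to 189 CPM in WT, without overlap and with a log2 change of -1.43 (adjusted p 0.99996, lowest 0.0217 of 27 settings). Tac1 in hippocampal SST cells was at 599 and 319.8 CPM in null and 130.3 to 327 CPM in WT, which overlapped. Penk and Pdyn took opposite sides in the null cortex libraries, as Penk was at 29.96 and 185 CPM and Pdyn at 243 and 50.7 CPM. Tac2 in null cortex replicate 1 rested on 1 UMI (1.15 CPM, 95% Poisson interval 0.0292 to 6.42).

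Crh in PVALB cells was low in every library but did not overlap between genotypes in cortex, at 18.9 and 17.7 CPM in null (6 and 62 UMIs) and 14.5, 1.83 and 4.43 CPM in WT (16, 5 and 30 UMIs). Its log2 change was 1.66 (adjusted p 0.999, lowest 0.211 of 23 settings), and it passed the threshold in none of them. Of the 62 UMIs of null replicate 2, 40 lay in cluster 30, and inside cluster 2 the genotypes overlapped, at 4.15 and 5.65 CPM in null and 13.9, 0 and 2.09 CPM in WT. With the peptide genes among the clustering features the mean of the null cortex libraries fell from 18.3 to 6.16 CPM, but in that setting the cluster led by Crabp1 and Kit was no longer in the class. In hippocampal NGFC cells Crh was at 30.7 and 7.91 CPM in null and 0, 2.85 and 2.58 CPM in WT, without overlap, and Cartpt at 202 and 9.63 CPM against 35.97, 3.798 and 27.4 CPM, with null replicate 2 among the WT values. Without the filter on low counts both passed there, among 23 of 20038 genes. In cortical PVALB cells Pnoc did not overlap between genotypes, at 81.7 to 89.1 CPM in null and 20.5 to 49.3 CPM in WT. Its log2 change was positive in all 23 settings, from 0.842 to 1.93, and it passed the threshold in none. Tac1 overlapped between genotypes in cortical PVALB cells, at 1357 and 1139 CPM in null and 1177 to 2028 CPM in WT. Cartpt did not overlap there, at 368 and 569 CPM in null and 770.1 to 1255 CPM in WT, and it failed the test. Inside cluster 2, which held 94.9% of the Cartpt UMIs of the class, the genotypes overlapped, at 486 and 965 CPM in null and 1080, 881 and 1320 CPM in WT. Pnoc in hippocampal NGFC cells was at 751 and 909 CPM in null and 351, 185 and 785 CPM in WT, which overlapped, and in the single null cortex library at 1169.7 CPM against 395 to 712 CPM.

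The machinery that makes and reads peptides was listed beside the precursors. Of 15 genes for processing enzymes and dense-core vesicle proteins, all 15 were tested for region in the SST class, and with the block 1 passed, beside 379 of 11955 genes (3.17%) over all. This was Vgf, lower in hippocampus at -0.86 (adjusted p 0.00461). Of 18 genes for receptors and the CRH-binding protein 12 were tested and 4 passed with the block. Npy2r (2.41) and Oprk1 (1.23), receptors for neuropeptide Y and dynorphins, were higher in hippocampus, and Tacr1 (-2.62), the substance P receptor, and Crhbp (-1.13), which binds CRH, were lower. Tacr1 was among the markers of the Chodl cluster and Crhbp among those of the SST class. Of 11 other peptide precursors 5 were tested and 1 passed, Nts (neurotensin), lower at -2.32. The blocked medians were -0.04, -0.09 and -0.86 for the 3 lists and 0.01 over all genes. In edgeR without the block 0 genes of each list passed for region in the SST class, with 0, 5 and 1 under an unadjusted 0.05, and 0 passed in every other comparison, with or without the block.

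With all libraries pooled, Pcsk1n, an inhibitor of the precursor-splitting enzymes, was at 2574 CPM in SST and TH, 2216 CPM in PVALB and 2078 CPM in NGFC cells, against 203 CPM in oligodendrocytes. Scg5, a helper of those enzymes, was at 756, 605 and 598 CPM. Among the receptors and binding proteins Crhbp led in SST and TH cells with 595 CPM and in PVALB cells with 127 CPM, and Tacr1 led in NGFC cells with 15.9 CPM. Cck, the precursor of cholecystokinin, was the most abundant of the other peptide genes, at 53.2 CPM in SST and TH, 933 in PVALB and 1485.5 CPM in NGFC cells, against 5.66 CPM in oligodendrocytes.

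Since several of the genes differed together between the regions, their promoters were searched for letters that cAMP-responsive factors are known to bind. RefSeq promoters of 300 bases (250 before to 50 after the start, GRCm38.p6) were found for 7 of the 10 genes, all but Crh, Penk and Pnoc. The full cAMP response element TGACGTCA was present in the promoters of Sst and Cartpt and in 588 of 32851 promoters (1.79%), searched on both strands. Its shorter core TGACG, which the full element contains on each strand, was found in 4 of the 7 (Sst, Cartpt, Cort and Tac1) and in 6837 of all promoters (20.8%), those with the full element included. The letters TATAAA were in 0 of the 7 and in 13.6% of all promoters. None of the genes with the full element passed the test for region. Crh and Penk, which passed it with the block, had no promoter to search, so the search cannot relate the element to region. A match of letters is no measure of binding. The Sst and Cartpt promoters (chr16:23890795-23891094 and chr13:99900634-99900933, both minus strand, written 5′ to 3′) are shown with the element in capitals.
Sst: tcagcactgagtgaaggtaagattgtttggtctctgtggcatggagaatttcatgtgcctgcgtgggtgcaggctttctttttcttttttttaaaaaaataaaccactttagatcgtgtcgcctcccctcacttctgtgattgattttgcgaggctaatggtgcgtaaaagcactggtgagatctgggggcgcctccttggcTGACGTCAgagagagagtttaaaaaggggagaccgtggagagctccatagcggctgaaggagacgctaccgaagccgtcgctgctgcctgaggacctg
Cartpt: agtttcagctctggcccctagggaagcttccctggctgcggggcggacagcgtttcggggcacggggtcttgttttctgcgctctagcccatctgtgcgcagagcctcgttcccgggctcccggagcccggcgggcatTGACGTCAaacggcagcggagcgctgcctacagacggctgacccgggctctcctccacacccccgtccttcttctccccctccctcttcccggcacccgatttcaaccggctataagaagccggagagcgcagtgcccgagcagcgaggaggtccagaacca

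The genotype comparisons rest on 2 null libraries per region, of which replicate 1 had few cells. Levels are those of transcripts, and neither peptide amounts nor release were measured here.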

How the data were processed

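The deposited matrices hold UMI counts, which the authors made with Cell Ranger (2.1.1 in the methods, 3.0.2 in the file headers) on mm10. Each gene's end was moved downstream by 4 kb, or only halfway to the next feature where that was nearer. Kept cells had 200 to 6000 detected genes and less than 30% of UMIs from mitochondria, and were integrated and clustered in Seurat 5.3.0 (25 dimensions, 2000 variable features less the 10 peptide genes, resolution 1.0). A cluster was named where at least 3 and 50% of a type's markers reached 20 CPM. Scrublet marked 249 cells (0.950%) as doublets, which were kept. UMIs were summed per library and class (at least 10 cells) and tested in edgeR 4.0.16 (TMM, filterByExpr, quasi-likelihood), with p adjusted over all genes tested. DESeq2 1.42.0, R 4.3.3, Python 3.11.15 and scipy 1.17.1 were also used. Intervals are 95% Wilson (cells) or Poisson (UMIs) and cover counting error only, and a count of 0 has a floor of 3 counts. Libraries of the same replicate number resembled each other across genes (Pearson's r 0.706, 0.634 and 0.399 for replicates 1, 2 and 3 in the SST class), and the block uses this. Alternatives were DESeq2, no filter on low counts, library totals alone, an adjusted p of 0.05, the replicate block, each library left out, the peptide genes kept in the clustering features, resolutions of 0.6 and 1.4, a stricter cell filter, doublets removed, sums of at least 20 cells, other model groups, SST clusters without TH and the oligodendrocyte level subtracted. All 10 genes are named, with every listed gene past the thresholds and otherwise the most abundant of each list. The 10 genes and the lists were chosen with earlier results of these data known. Ribosome-bound RNA, in situ hybridisation and protein sequences were not used here.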

Additional observations from a re-analysis of the deposited data

Results flagged for a closer look

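The values here come from clusters outside the classes compared above. They are listed because a peptide gene was more than 5 times its oligodendrocyte level and the lower bound of its 95% Poisson interval was above 20 CPM, which 18 levels in 6 clusters met.

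Cluster 23 (418 cells), led by Oxt and Avp and with markers of both interneurons and cholinergic cells, was left unnamed. It reached 3 of 3 Chodl markers and 4 SST markers, and Nos1 was among its top 10 genes. With the peptide genes among the clustering features, a cluster of 283 cells led by Galr1, Tacr1, Pcp4 and Nos1 was named Chodl. Cluster 23 had 23895 CPM of Sst, 22172.5 of Npy, 409 of Tac1 (272 of 1136 UMIs in a single cell), 239.99 of Cartpt, 198 of Pnoc, 95.5 of Penk and 42.2 CPM of Cort. Its cells with Sst and with Npy were largely the same, since after thinning Npy was found in 91.2% of the cells with Sst and in 5.096% of the rest. Sst was at 34909, 21065 and 28475 CPM in this cluster in WT cortex replicates 1, 2 and 3, and at 768 and 73.4 CPM in WT hippocampus replicates 1 and 3. Null cortex replicate 2 had 39504 CPM and null hippocampus replicate 2 had 14969 CPM, from 77 and 63 cells.

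Cluster 21 (510 cells, median 651.5 UMIs), unnamed because too few markers reached the level asked for, had 3691 CPM of Sst, 1170.5 of Npy, 177 of Cort (21 of 70 UMIs in a single cell), 139 of Tac1, 63.2 of Cartpt and 42.98 CPM of Pnoc. Among glutamatergic clusters, cluster 19 had 68.7 CPM of Cartpt, with 55 of 250 UMIs in a single cell, and cluster 20 had 349.8 CPM of Penk, with 85 of 191 UMIs in a single cell. Astrocyte cluster 22 had 309 CPM of Sst, with 278 of 389 UMIs in a single cell, and 58.1 CPM of Cort, with 59 of 73 UMIs in a single cell. Microglia cluster 28 had 295 CPM of Sst, in 77 of 263 cells.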

How the results depend on the processing

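Of 283 alternatives tried for the comparisons and levels, 262 were counted as unchanged and 21 as moved. Unchanged means that the number of peptide genes called, or of levels of at least 20 CPM, stayed within 1.5-fold of the main number. For the NGFC comparisons without a test it means that the Npy difference moved by less than 1 SD of the WT cortex libraries. The main number of genes called was 0 in every tested comparison, so this tally does not measure direction. Among 205 alternatives run for single peptide genes 0 reversed. They covered region for Npy, Crh, Tac2, Penk and Pdyn in SST cells, Npy in PVALB cells and Crh in NGFC cells. For genotype they covered only Npy in PVALB cells of both regions. The region pairs were those that passed with the block, so the absence of reversals does not extend to the other genes. Signs did change among those, as for Cort between regions in PVALB cells, positive in 9 of 19 settings. The region comparison of the SST class moved most. From 0 of 10 genes it went to 2 with DESeq2, 5 without the filter on low counts, 5 with the replicate block, 1 at a resolution of 0.6, 1 without the low-UMI cluster, 4 with the block and without the Chodl cluster, 5 with the block and without the low-UMI cluster, 0 to 1 with single libraries left out, and 7 with the block and without WT hippocampus replicate 2. For region in the PVALB class it went from 0 to 3 genes without the filter (Npy, Sst and Pnoc) and 1 with the block. In the NGFC class it went to 1 with DESeq2, 1 without the filter and 1 with the block. For genotype it went from 0 to 2 in hippocampal NGFC cells without the filter. The block changed no other call. Npy in NGFC cells, given without a test, went with the block from -0.07 to 0.16 for genotype in cortex. Its difference between regions in the genotype effect went from 0.52 to 0.87 with the block, 0.29 without the low-UMI cluster and 0.17 to 1.39 with single libraries left out. The cause of these moves was not tested. The settings without the Chodl or low-UMI clusters, with the Oxt cluster, or with the block joined to another choice were chosen after seeing the data.

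Counts over all genes moved more than those of the peptide genes. For region in the SST class 4 genes became 0 to 5 with single libraries left out, 796 with the block and without WT hippocampus replicate 2, and 3 to 379 in other settings, in the PVALB class 3 became 0 to 1 and 2 to 85, and in the NGFC class 0 became 0 to 34. For genotype in cortical PVALB cells 1 gene became 0 to 8 with single libraries left out and 0 to 52 in other settings. The highest counts for genotype elsewhere were 21 and 20 in SST cells of cortex and hippocampus, 13 in hippocampal PVALB cells and 23 in hippocampal NGFC cells, against 0 in each. Of 120 levels by class and group 88 reached 20 CPM, and 84 to 89 did in the alternatives that kept all 120. Cluster boundaries also moved slightly with the settings of the numerical libraries, which were then fixed, and calls near the threshold can move with them. Libraries of few cells limit the rest, since null cortex replicate 1 had 30 PVALB cells and 3 NGFC cells.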
